A study of Mus musculus with 8 samples.

Results

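Nuclei of the mouse optic nerve (ON) were searched for fibroblasts that carried RNA of *Ranbp3l* and none of *Adamtsl3*. A barcode of any of the 8 single-nucleus libraries was kept when it held at least 1000 UMIs (unique molecular identifiers, the molecules counted) with under 5% from mitochondrial genes, which left 40845 barcodes. Of these, 2949 were taken as fibroblasts because they held at least 4 of the 8 genes *Dcn*, *Col1a1*, *Col1a2*, *Bnc2*, *Trpm3*, *Sdk1*, *Ranbp3l* and *Cdh11*. They also held fewer than 3 UMIs of the oligodendrocyte (OL) gene *St18* and fewer than 3 UMIs of the astrocyte genes *Aqp4* and *Slc1a2* together. The 1770 fibroblasts with at least 1 *Ranbp3l* UMI and no *Adamtsl3* UMI are here called *Ranbp3l*+ fibroblasts or members. They were thus chosen by their own counts of the 12 genes named. The 1179 other fibroblasts comprised 849 with *Adamtsl3* (277 of them with *Ranbp3l* as well) and 330 with neither gene. No barcode of a member occurred in more than 1 library.

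The libraries came from ONs of mice at postnatal day 120, with 6 nerves of 3 female mice pooled for each library. The 4 control libraries (replicates 1 to 4) were from Piezo2f/f mice without a cre allele. The 4 libraries labelled cKO (replicates 10 to 13) were from Olig2-cre;Piezo2f/f mice. All groups thus carried the floxed *Piezo2* allele, and the second group lacked 1 intact copy of *Olig2* in addition. Olig2-cre is a knock-in that acts in the OL lineage, and fibroblasts are not the cells it targets. The series addresses where Piezo genes are expressed in the ON and what changes when OLs lose *Piezo2*.

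Fibroblasts of the ON sit mainly in its meningeal sheath, whose outer dura, middle arachnoid and inner pia each hold fibroblasts of their own, and around vessels. Pial and arachnoid fibroblasts are known for basement membrane proteins, retinoic acid synthesis and transporters that clear solutes from cerebrospinal fluid, whereas arachnoid barrier cells seal this space with E-cadherin junctions and efflux pumps. RANBP3L is known as a nuclear export factor of BMP-regulated SMAD proteins, TRPM3 is a calcium-permeable channel of the plasma membrane, BNC2 is a zinc finger transcription factor of mesenchymal cells, and ADAMTSL3 is a secreted matrix protein without protease activity.

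Total UMIs ranged from 39628926 to 56541132 per library, and the members numbered 107 to 367 per library with a median of 3485.5 UMIs per nucleus. Barcodes of 200 to 500 UMIs were taken as empty droplets, which show the free RNA of a library. Levels are given as CPM (UMIs per 1000000 summed UMIs). In empty droplets, control replicate 3 stood apart with 4747 CPM of *Prl* and 2504 CPM of *Gh*, hormone genes of the pituitary, where no other library exceeded 344 and 148 CPM. *Piezo2* in OL nuclei was 467, 374, 367 and 459 CPM in control replicates 1 to 4 and 512, 498, 542 and 497 CPM in the libraries labelled cKO, which were thus not lower. The counts cover the whole gene and do not read the floxed exons on their own, so they do not check the deletion, and the second group is named by its label throughout.

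The genes of the rule describe the members but cannot be tested, since they chose them. *Ranbp3l* was 2079.8 to 3121 CPM in the members of the 8 libraries (median 2507), 280.0 to 905 CPM in *Adamtsl3*+ fibroblasts and 80.3 CPM in empty droplets. A member held a median of 7 *Ranbp3l* UMIs and at most 182. Of all members, 987 (55.8%) held 6 or more and 237 (13.4%) held 1. *Trpm3* was 18918 to 26740.4 CPM (median 21128) in the members and 2563 to 7462 CPM (median 5976) in the other fibroblasts, and the ranges did not overlap. *Bnc2* did not mark this group against the other fibroblasts as a whole. It was 672 to 992 CPM in the members (median 878), above the 34.7 CPM of empty droplets. The other fibroblasts held more in every library, at 1698 to 2537 CPM. This came from *Adamtsl3*+ fibroblasts (1979 to 3115 CPM). Those lacking both genes held 437 to 809 CPM (median 609), less than the members in every library but control replicate 3 (697 against 672 CPM). *Cdh11*, a cadherin of mesenchymal cells, was lower in the members than in the other fibroblasts (63.97 against 263 CPM), whereas *Sdk1*, an adhesion molecule of the immunoglobulin family, was higher (972 against 546 CPM). Among the collagen and proteoglycan genes of the rule, *Dcn* was 794 CPM in the members, 477 CPM in the other fibroblasts and 509.8 CPM in empty droplets. *Col1a1* (323 against 257 CPM) and *Col1a2* (417 against 398 CPM) lay closer together.

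**Figure D1:**
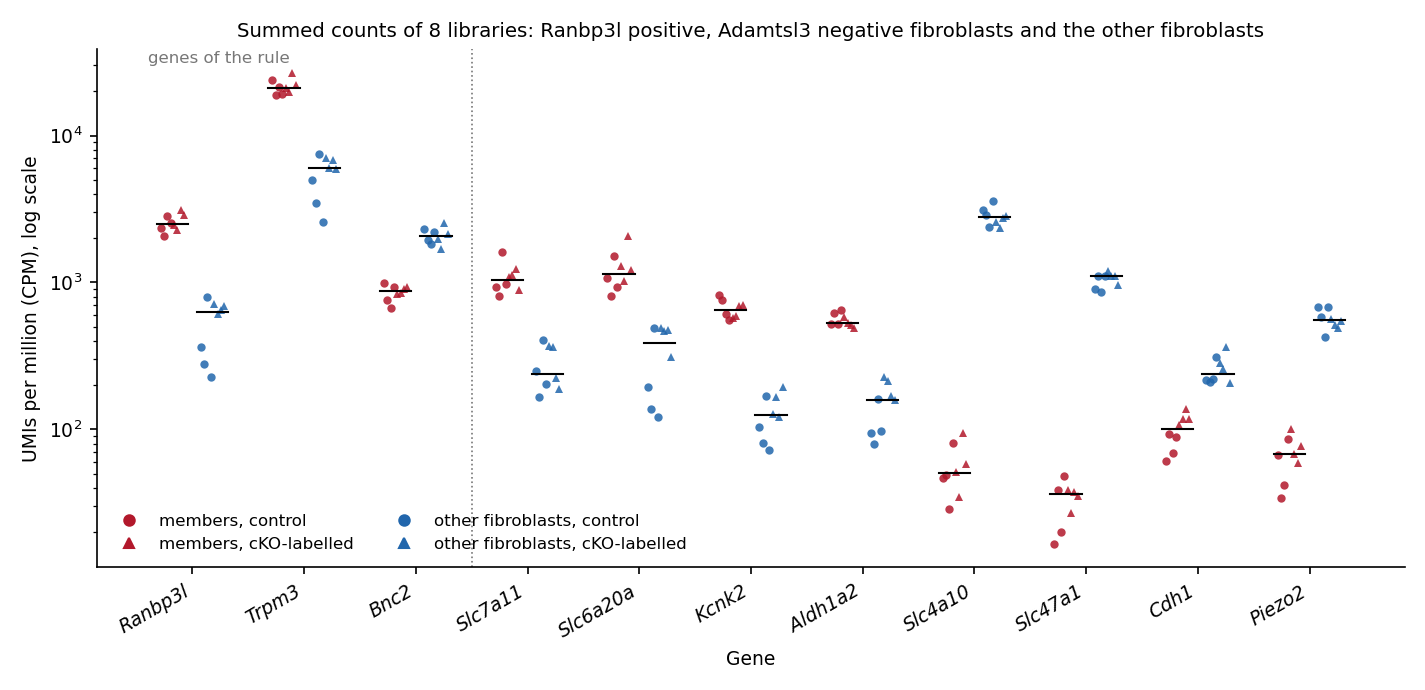
Levels of rule genes and genes outside the rule in each library, in CPM on a log axis, with a red point for the members and a blue point for the other fibroblasts of each library (circles for control, triangles for cKO-labelled libraries, lines for medians). The genes left of the dotted line belong to the rule. *Trpm3* in the members lay between 18918 and 26740.4 CPM, above all 8 values of the other fibroblasts, whereas *Slc4a10* lay below all of theirs.

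Some *Ranbp3l* UMIs were found in OL and astrocyte nuclei and in empty droplets, and where they came from was not tested. Between 3.57% and 5.99% of OL nuclei (median 2541 to 3391.5 UMIs) held a *Ranbp3l* UMI, as did 6.86% to 11.7% of astrocyte nuclei (median 2777 to 4002 UMIs). Of all fibroblasts (median 3210 to 4697 UMIs), 56.6% to 77.1% held it. Empty droplets held 0.0196 to 0.0492 *Ranbp3l* UMIs each. *Adamtsl3* was found in 6.62% to 11.6% of OL nuclei. Near the limits of the rule, 78 fibroblasts with *Ranbp3l* were left out for 1 *Adamtsl3* UMI and 199 for 2 or more. The minimum of 4 rule genes was just met by 545 members and missed with 3 by 378 nuclei. At the depth limit, 29 members had fewer than 1200 UMIs while 44 nuclei that met the other conditions had 800 to 1000. With every fibroblast thinned to 1000 UMIs, a *Ranbp3l* UMI remained in 73.8% to 88.1% of the members.

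Members that held more *Ranbp3l* UMIs differed in other genes from those that held few. Summed over libraries, *Trpm3* was 7102 CPM in members with 1 *Ranbp3l* UMI (237 nuclei), 13114 CPM in those with 2 to 5 (546 nuclei) and 26559 CPM in those with 6 or more (987 nuclei). Their median depth was 2470, 2849.5 and 4195 UMIs. *Slc6a20a*, a proline transporter of the leptomeninges, went the same way, from 294 over 694 to 1588 CPM. *Lama1*, a laminin chain of pial basement membrane, went the other way, from 381 over 301 to 99.9 CPM. *Slc4a10*, a bicarbonate transporter, stayed at 47.8 to 75.3 CPM in all 3 ranges, against 4578 CPM in *Adamtsl3*+ fibroblasts without *Ranbp3l*. Nuclei that held *Ranbp3l* and 1 *Adamtsl3* UMI had 20038 CPM of *Trpm3*, within the range of the members, but 393 CPM of *Slc4a10*, above it. Those with *Ranbp3l* and 2 or more *Adamtsl3* UMIs had 9752 CPM of *Trpm3* and 2316 CPM of *Slc4a10*. These values are given without a test, because *Ranbp3l* counts rise with depth and also define the rows compared.

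Outside the rule, *Ranbp3l*+ fibroblasts differed from the other fibroblasts of the same libraries in many genes, among them solute carriers, Wnt pathway genes and guidance molecules. UMIs were summed per library and group and compared by edgeR's quasi-likelihood test with the library as a block and Benjamini-Hochberg adjustment. Calls required both an adjusted p below 0.05 and a log2 difference beyond 0.5 in size. The members had 950 higher and 987 lower calls among 10601 tested genes (18.3% in all, 8.96% higher and 9.31% lower), with a median log2 difference of 0.01 over all genes. The CPM ranges of the 8 libraries did not overlap for 3.75% of all genes on the higher side and 3.93% on the lower side. Pairs of levels below are medians over the 8 libraries with the members first, and values with ± beside them are log2 differences with their SE. Both groups were cut from the same nuclei by their counts of a few genes. A call thus says that the 2 kinds of nuclei differed by more than the libraries varied. The gene lists below were chosen with earlier results of these data known. Their counts are therefore set beside these shares as a description and not as a test of a list. The median UMI count of the members had a mean over libraries of 3608.6 ± 475.9 (SD, n = 8) against 3902.9 ± 430.47. It was lower in 7 of 8 libraries. Median genes per nucleus were 2099 ± 212 against 2137 ± 161, and the mitochondrial share was 0.938 ± 0.138% against 1.00 ± 0.168%. A rule on counts of single genes selects by depth, so depth is given here and below as a description with no test.

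Among the genes that led the higher calls, *Slc7a11*, the cystine importer of system xc-, was 804 to 1604 CPM (median 1037) in the members and 166 to 403 CPM (median 237) in the other fibroblasts. Its groups did not overlap, and the log2 difference was 2.00 ± 0.10 (adjusted p = 1.3e-10). *Kcnk2*, which encodes the stretch-sensitive potassium channel TREK-1, was 556 to 822 CPM (median 652) in the members and 72.9 to 193 CPM (median 125) in the other fibroblasts. It was likewise separate between the groups, with a log2 difference of 2.32 ± 0.14. *Igfbp3*, a secreted binder of insulin-like growth factors, was 113 to 493 CPM (median 281) in the members and 21.99 to 155 CPM (median 51.02) in the other fibroblasts (2.01 ± 0.24). *Themis*, best known from thymocyte development, was a low gene with 29.9 to 135 CPM (median 77.8) in the members and 4.05 to 23.97 CPM (median 10.5) in the other fibroblasts. Its log2 difference of 2.57 ± 0.22 was the largest of the 15 leading genes. *Slc16a12*, a creatine transporter, was higher by 2.09 ± 0.18 on the log2 scale. *Lepr*, the leptin receptor, was higher by 2.01 ± 0.17. The channel gene *Kcnt1* was 176 against 48.3 CPM (2.04 ± 0.17), and the microtubule gene *Dcdc2a* was 203 against 53.5 CPM (2.04 ± 0.16). The membrane gene *Sidt1* was 108 against 12.9 CPM (2.33 ± 0.29). *Moxd1*, a monooxygenase-like gene, was 52.2 against 12.6 CPM (1.98 ± 0.17), and the phospholipase gene *Pla1a* was 69.7 against 18.9 CPM (1.95 ± 0.15). The remaining 4 of the 15, *Gm17114*, *ENSMUSG00000121393*, *4930405A10Rik* and *Gm27151*, are non-coding or predicted genes.

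The lower calls reached larger differences. *Slc4a10* was 28.8 to 95.2 CPM (median 50.2) in the members and 2341 to 3567 CPM (median 2777) in the other fibroblasts, a log2 difference of -5.74 ± 0.14 (adjusted p = 2.3e-14). No library of either group came near the other. *Chrm3*, a muscarinic acetylcholine receptor, was 5.95 to 45.7 CPM (median 14.2) in the members and 458 to 921 CPM (median 712) in the other fibroblasts (-5.53 ± 0.19). *Slc47a1*, which encodes the organic cation exporter MATE1, was 16.7 to 48.6 CPM (median 36.4) in the members and 859.5 to 1193 CPM (median 1103) in the other fibroblasts (-5.05 ± 0.12). Its relative *Slc47a2* rested on 12 UMIs in all members against 763 in the other fibroblasts (-6.20 ± 0.24). *Rtl4*, a gene derived from a retrotransposon, had 32 against 2050 UMIs (-6.30 ± 0.22). *Prmt8*, a brain-enriched arginine methyltransferase, had 10 against 433 UMIs, and *Tll1*, a tolloid protease that cleaves procollagen and chordin, 44 against 1442 UMIs. The anion exchanger gene *Slc26a7* (-5.14 ± 0.10) and the predicted genes *Gm11264* and *Gm28153* completed the 10 leading lower genes. At such low counts a fitted difference depends on the small count that edgeR adds, so it gives an order of size.

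**Figure D2:**
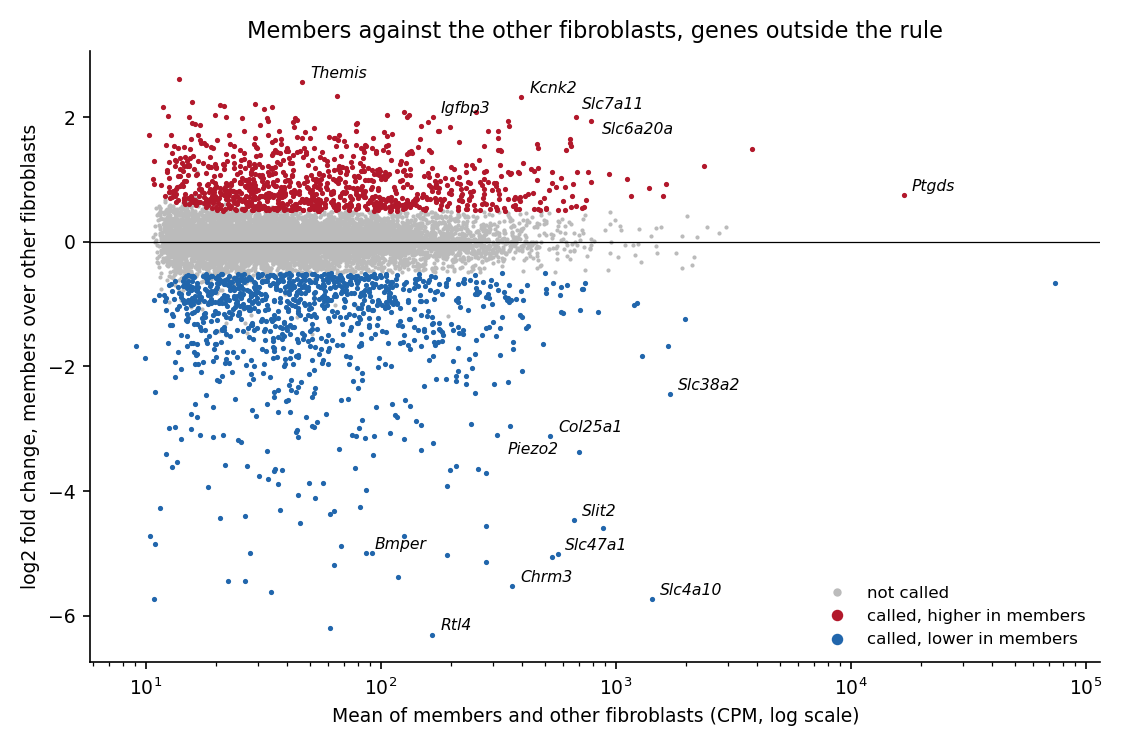
Log2 difference of the members over the other fibroblasts (vertical axis) against the mean level of both in CPM (horizontal log axis) for the genes tested outside the rule, with red for genes called higher and blue for genes called lower. *Themis* (2.57) lies at the top among the labelled genes and *Rtl4* (-6.30) at the bottom, so that the lower calls reach farther from 0 than the higher ones.

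Transporters of the leptomeninges divided into a higher and a lower set. Of 26 tested solute carriers of the list, 12 were higher and 9 lower, and their median log2 difference was 0.24. Besides *Slc7a11* and *Slc16a12*, transporters of amino acids, organic anions and dicarboxylates were higher. *Slc6a20a* was 811 to 2057 CPM (median 1143) in the members and 122 to 488 CPM (median 388) in the other fibroblasts (1.94 ± 0.15). *Slc6a13*, a GABA and taurine transporter, was 445 against 135 CPM at the medians (1.79 ± 0.13). *Slc22a8*, which encodes the organic anion transporter OAT3, was 482 against 154 CPM (1.67 ± 0.15), and its relative *Slc22a6* (OAT1) was 147 against 45.1 CPM (1.47 ± 0.16). *Slc13a3*, a dicarboxylate carrier, was higher by 1.61 ± 0.15. *Slc26a7* and *Slc47a1* led the lower set. The sulfate transporter gene *Slc26a2* was 35.1 against 402 CPM (-3.60 ± 0.10). *Slc12a7*, a potassium chloride cotransporter, was 18.5 against 149 CPM (-3.14 ± 0.18). *Slc38a2*, a neutral amino acid transporter, was 425 to 743 CPM (median 529.7) in the members and 2426 to 3409.7 CPM (median 2808) in the other fibroblasts (-2.45 ± 0.09).

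Of 11 tested ABC transporters, a family that includes drug efflux pumps, 1 was higher and 5 were lower (median -0.34). *Abcc4*, an exporter of cyclic nucleotides and organic anions, was 21.4 against 200.4 CPM (-2.81 ± 0.20). *Abcb1a*, which encodes P-glycoprotein, was 67.8 to 129 CPM (median 104) in the members and 317 to 501 CPM (median 344) in the other fibroblasts (-1.89 ± 0.09). *Abcg2*, which encodes the breast cancer resistance protein, was 77.6 to 128 CPM (median 95.6) in the members and 194 to 319.9 CPM (median 264) in the other fibroblasts (-1.45 ± 0.10). The peroxisomal gene *Abcd3* was 121 against 267 CPM (-1.31 ± 0.11). Of the wider list of arachnoid barrier genes, 4 of 10 tested were higher and 3 lower (median 0.26). Against fibroblasts lacking both genes 6 of 10 were higher and 0 lower, and against *Adamtsl3*+ fibroblasts 4 were higher and 4 lower. The genes lower than in the other fibroblasts as a whole were both drug pumps and *Cdh1*, which encodes E-cadherin, at 60.7 to 138 CPM (median 99.9) in the members and 207 to 364 CPM (median 239) in the other fibroblasts (-1.42 ± 0.11). The higher ones included the Wnt ligand gene *Wnt6* (199 against 71.8 CPM, 1.44 ± 0.14) and the tight junction scaffold gene *Tjp1* (845 against 559 CPM, 0.57 ± 0.09).

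Genes listed for arachnoid and pial fibroblasts were higher in the members in 13 of 18 tested cases and lower in 1, the lower gene being *Slc47a1*, with a median log2 difference of 0.82. *Aldh1a2*, the enzyme that makes retinoic acid, was 491 to 648 CPM (median 529) in the members and 79.1 to 228 CPM (median 159.5) in the other fibroblasts (1.87 ± 0.16). *Wnt4*, a Wnt ligand, was 192 to 324 CPM (median 282) in the members and 52.03 to 117 CPM (median 72.6) in the other fibroblasts (1.77 ± 0.12). *Tbx18*, a T-box factor of mesenchyme, was higher by 0.86 ± 0.14. *Ptgds*, the prostaglandin D2 synthase of the leptomeninges, was 20163 against 11798 CPM with 11592 CPM in empty droplets (0.75 ± 0.22). Its call was lost in 5 of 17 other settings (highest adjusted p = 0.143). In contrast, the list of dural and adventitial fibroblast genes had 3 of 12 tested genes higher and 6 lower (median -0.59). *Alpl*, tissue-nonspecific alkaline phosphatase, was 4.36 against 72.7 CPM (-3.66 ± 0.27), and the matricellular gene *Smoc2* was 17.2 against 58.5 CPM (-1.96 ± 0.23). *Mgp*, an inhibitor of calcification, was 551 to 1053 CPM (median 798) in the members and 1513 to 3571 CPM (median 2519) in the other fibroblasts (-1.68 ± 0.10). *Fxyd5*, a regulator of the sodium pump, was 97.6 against 277 CPM (-1.59 ± 0.12).

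Matrix genes differed by class. Of 20 tested basement membrane genes, 12 were higher and 1 lower (median 0.63). Against *Adamtsl3*+ fibroblasts alone 13 of 20 were higher and 1 lower, but against fibroblasts lacking both genes 3 were higher and 4 lower. The summed level was 2949 CPM in the members and 2684 CPM in fibroblasts lacking both genes, as medians over libraries. *Lama1* was 98.4 to 278 CPM (median 148) in the members and 42.2 to 121 CPM (median 79.3) in the other fibroblasts (1.13 ± 0.14), and these ranges overlapped. Fibroblasts lacking both genes held 111 to 384 CPM of *Lama1* (median 233), against which the members were not called (-0.54 ± 0.23, adjusted p = 0.102). *Lamc1*, the common laminin gamma chain, was 395 to 593 CPM (median 514) in the members and 191 to 294 CPM (median 222) in the other fibroblasts (1.11 ± 0.08). Among the higher genes, the largest differences were those of *Lamc3*, another gamma chain (38.6 against 10.00 CPM, 1.87 ± 0.22), and of the type IV collagen chain *Col4a3* (38.00 against 11.7 CPM, 1.47 ± 0.20). The widespread type IV chain *Col4a1* was 98.9 against 83.1 CPM and was not called (0.37 ± 0.11, adjusted p = 0.0203). *Fras1*, a basement membrane protein of epithelial junctions, was the lower gene (7.81 against 26.8 CPM, -1.62 ± 0.32).

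Small leucine-rich proteoglycans, which bind collagen fibrils, were higher in 6 of 8 tested genes outside the rule and lower in 0 (median 0.79). Against *Adamtsl3*+ fibroblasts alone 6 of 8 were higher and 0 lower, but against fibroblasts lacking both genes 3 were higher and 0 lower. *Fmod*, which encodes fibromodulin, was 155 to 303 CPM (median 261) in the members and 50.1 to 188 CPM (median 125) in the other fibroblasts (1.02 ± 0.12). *Omd* was 92.2 against 47.3 CPM (1.01 ± 0.14) and *Ecm2* 113 against 59.7 CPM (0.81 ± 0.12). Both lie within the gene *Cenpp* of the opposite strand, from which their reads may not be separable. Elastic fibre and crosslinking genes were higher in 9 of 19 and lower in 0 (median 0.60). Against fibroblasts lacking both genes 2 of 19 were higher and 2 lower, and the summed levels were 2014 CPM in the members and 2044 CPM there. *Ltbp1*, a latent TGF-beta binder, was 99.2 against 38.5 CPM (1.17 ± 0.16). The lysyl oxidase genes *Loxl2* (1.00 ± 0.15) and *Loxl3* (0.75 ± 0.18) and the fibrillin gene *Fbn2* (0.81 ± 0.27) were higher. *Eln*, which encodes elastin, was 180.3 against 101 CPM (0.68 ± 0.20). The call of *Eln* was lost in 9 of 17 other settings and that of *Fbn2* in 7 of 14.

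Fibrillar collagens outside the rule had 1 of 7 higher and 1 lower (median 0.12). The higher gene was *Col5a1*, a regulator of fibril diameter, with 102 to 152 CPM (median 135) in the members and 44.3 to 73.9 CPM (median 56.2) in the other fibroblasts (1.15 ± 0.10). The lower gene was *Col11a1* (19.6 against 33.1 CPM, -0.87 ± 0.20). *Col3a1* was 502 against 379.7 CPM and was not called (0.40 ± 0.08, adjusted p = 9.6e-04). Other collagens divided into 6 higher and 6 lower of 15 (median -0.00, rounded to 2 decimals). *Col26a1* was 70.6 against 23.9 CPM (1.76 ± 0.17) and the transmembrane collagen gene *Col13a1* 56.3 against 17.9 CPM (1.66 ± 0.16). On the lower side, *Col8a1*, a short-chain collagen of vessels and basement membranes, was 78.4 against 348 CPM (-2.07 ± 0.11). *Col25a1*, a transmembrane collagen, was 40.6 to 216 CPM (median 112) in the members and 712 to 1271 CPM (median 955) in the other fibroblasts (-3.12 ± 0.14).

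Matrix proteases and their inhibitors had 4 of 19 genes higher and 5 lower (median 0.05). *Timp3*, an inhibitor that binds to matrix, was 626 to 974 CPM (median 810.3) in the members and 371 to 463 CPM (median 415) in the other fibroblasts (0.89 ± 0.08). *Adamtsl1*, a relative of the *Adamtsl3* gene that the rule excluded, was 17.7 to 58.3 CPM (median 29.9) in the members and 241 to 436 CPM (median 282) in the other fibroblasts (-3.23 ± 0.10). *Adamts17* was 3.77 against 30.1 CPM (-3.10 ± 0.27). The membrane-bound protease gene *Mmp16* was 68.3 against 331 CPM (-2.24 ± 0.15), and the aggrecanase gene *Adamts5* 22.9 against 54.5 CPM (-1.33 ± 0.20).

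**Figure D3:**
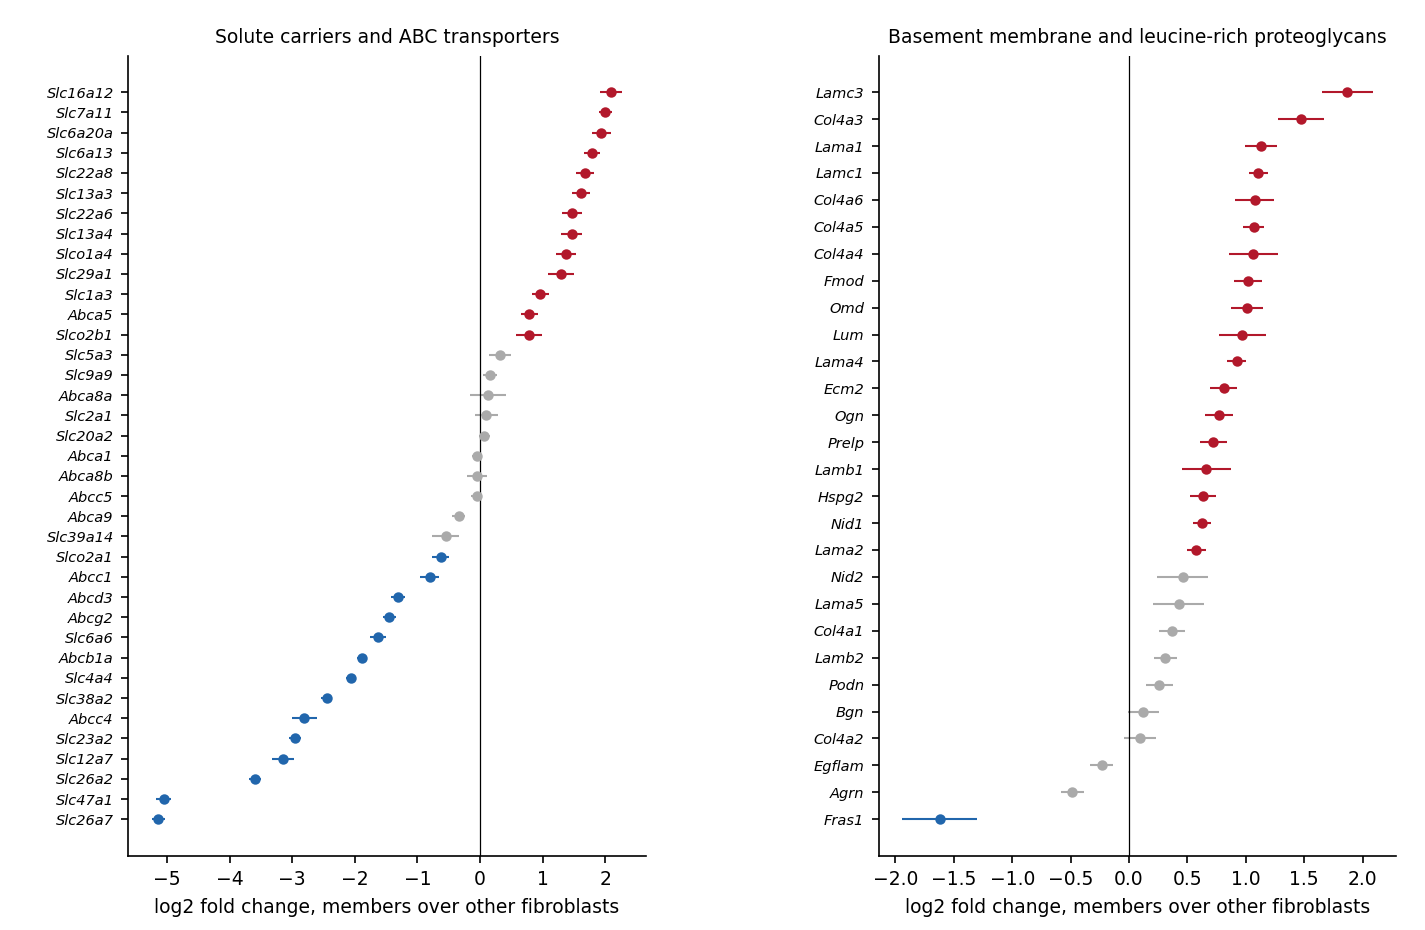
Log2 differences of the members over the other fibroblasts (horizontal axes, bars for the standard error) for transporters on the left and matrix genes on the right, in red where called higher, blue where called lower and grey where not called. *Slc6a20a* (1.94) and *Lamc3* (1.87) lie on the higher side and *Slc47a1* (-5.05) and *Abcc4* (-2.81) on the lower side.

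Signalling genes were arranged by pathway. Retinoic acid genes were higher in 6 of 15 and lower in 1 (median 0.26). Besides *Aldh1a2*, these were genes of retinol transport, synthesis and breakdown. The retinol dehydrogenase gene *Rdh10* was 41.8 against 17.9 CPM (1.08 ± 0.18), and the retinol carrier gene *Rbp4* 127 against 51.7 CPM (1.08 ± 0.19). *Cyp26b1*, which degrades retinoic acid, was 64.1 against 23.6 CPM (1.01 ± 0.18).

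Wnt pathway genes were higher in 14 of 30 and lower in 9 (median 0.44). Against *Adamtsl3*+ fibroblasts 13 of 29 were higher and 10 lower, but against fibroblasts lacking both genes 9 of 29 were higher and 3 lower. Among the secreted activators, the higher genes included *Wnt4* and *Wnt6*. *Rspo3*, an R-spondin that amplifies Wnt signals, was 28.9 to 54.6 CPM (median 39.6) in the members and 376 to 659 CPM (median 530.1) in the other fibroblasts (-3.71 ± 0.13). The inhibitor genes *Apcdd1* (99.1 against 26.6 CPM, 1.64 ± 0.17) and *Axin2* (47.5 against 26.97 CPM, 0.77 ± 0.13), both known targets of the pathway, were higher. The decoy gene *Sfrp4* (9.86 against 53.7 CPM, -2.17 ± 0.25) and the receptor gene *Fzd4* (11.8 against 37.2 CPM, -1.76 ± 0.22) were lower. IGF genes had 5 of 13 higher and 3 lower (median 0.04), and against fibroblasts lacking both genes 2 of 13 were higher and 2 lower. *Igfbp2* was 211 to 419 CPM (median 279.8) in the members and 72.9 to 236 CPM (median 98.05) in the other fibroblasts (1.16 ± 0.12), and with *Igfbp3* it stood on the higher side. *Igfbp4* (29.1 against 76.1 CPM, -1.23 ± 0.20) and the receptor adaptor gene *Irs1* (47.8 against 113 CPM, -1.21 ± 0.12) were lower.

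BMP and TGF-beta genes had 7 of 41 higher and 13 lower (median -0.12). Of the SMAD effectors of these pathways, the BMP-regulated ones are the known cargo of RANBP3L. Among ligands, *Bmp6* was 804 to 1432 CPM (median 1012) in the members and 391 to 595 CPM (median 529) in the other fibroblasts (0.96 ± 0.09). *Bmp7* was 333 against 151 CPM (1.23 ± 0.15). In the other direction, *Bmp5* was 20.7 against 175 CPM (-3.11 ± 0.14) and the activin chain gene *Inhba* 2.43 against 24.9 CPM (-2.97 ± 0.32). *Bmper*, a secreted BMP modulator, was 2.04 to 9.19 CPM (median 5.94) in the members and 97.7 to 263 CPM (median 154) in the other fibroblasts (-4.99 ± 0.19). The effector gene *Smad9* was 11.5 against 79.01 CPM (-2.72 ± 0.15). *Id1*, a target of BMP signalling, was 55.1 to 130.4 CPM (median 81.00) in the members and 154 to 359 CPM (median 254) in the other fibroblasts (-1.65 ± 0.10). *Smad7*, an inhibitory SMAD that is also a target, was 67.02 against 132 CPM (-1.01 ± 0.10).

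Ran binding and nuclear transport genes, the class of proteins that RANBP3L belongs to, had 1 of 22 higher and 1 lower, a share of calls below that of all genes (median -0.00, rounded). The higher gene was *Ranbp17* (76.6 against 45.5 CPM, 0.77 ± 0.10), and the lower the exportin gene *Xpo1* (78.7 against 141 CPM, -0.82 ± 0.09). *Ranbp3*, the nearest relative of *Ranbp3l*, was 25.4 against 21.1 CPM and was not called (0.21 ± 0.16, adjusted p = 0.413).

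Of 51 tested transcription factors of mesenchyme and meninges, 12 were higher and 17 lower (median -0.08). Against fibroblasts lacking both genes 15 were higher and 10 lower, and against *Adamtsl3*+ fibroblasts 13 were higher and 18 lower. *Osr1*, a zinc finger factor of connective tissue fibroblasts, was 196 against 90.7 CPM (1.08 ± 0.10). *Foxp1*, a forkhead factor, was 1086 to 1377 CPM (median 1141) in the members and 2235 to 3208 CPM (median 2641) in the other fibroblasts (-1.23 ± 0.07). Larger differences were found on the lower side. The orphan receptor gene *Nr4a2* was 10.1 against 69.6 CPM (-2.54 ± 0.22). *Prrx1*, a homeobox gene of limb and facial mesenchyme, was 18.3 against 63.7 CPM (-1.83 ± 0.22), and *Zfhx4* 55.7 against 195 CPM (-1.60 ± 0.10).

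Of vascular and guidance ligands and receptors, 19 of 53 were higher and 18 lower (median -0.07). The ephrin gene *Efnb2* was 208 to 333 CPM (median 296) in the members and 55.04 to 103 CPM (median 73.6) in the other fibroblasts (1.78 ± 0.12). *Il34*, a cytokine that sustains macrophages, was 117 against 39.7 CPM (1.51 ± 0.19). *Slit2*, a repulsive guidance ligand, was 33.3 to 96.4 CPM (median 55.1) in the members and 1068 to 1529 CPM (median 1285) in the other fibroblasts (-4.46 ± 0.14), and no library of either group reached the other. *Slit3* was 23.2 against 178 CPM (-3.07 ± 0.18). The netrin relative *Ntng1* was 5.86 against 78.3 CPM (-4.06 ± 0.23). *Kitl*, the ligand of the receptor KIT, was 10.1 against 93.5 CPM (-2.89 ± 0.23). *Nrp1*, a coreceptor of semaphorins and VEGF, was 69.6 to 99.9 CPM (median 90.2) in the members and 272 to 499.9 CPM (median 350.1) in the other fibroblasts (-2.16 ± 0.11).

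Both Piezo channels, which open under membrane tension, differed between the members and the other fibroblasts in opposite directions. *Piezo2* was 66.6, 33.9, 42.1 and 86.6 CPM in the members of control replicates 1 to 4 and 101, 68.4, 58.8 and 77.5 CPM in those of cKO-labelled replicates 10 to 13. In the other fibroblasts of these libraries it was 428 to 681 CPM, above every value of the members, and in empty droplets 58.8 CPM at the median, close to the 67.5 CPM of the members. The log2 difference from the other fibroblasts as a whole was -3.11 ± 0.12 (adjusted p = 4.1e-12). Of these, *Adamtsl3*+ fibroblasts held 468 to 919 CPM of *Piezo2*. Those lacking both genes held 79.1 to 216 CPM (median 153), a range that overlapped that of the members. Within libraries they held more than the members in all but cKO-labelled replicate 10. There they had 79.1 CPM, from 5 UMIs, against 101 CPM in the members. *Piezo1* was 12.8 to 45.7 CPM (median 28.99) in the members and 10.1 to 19.4 CPM (median 14.2) in the other fibroblasts (0.88 ± 0.21, adjusted p = 0.00414), and empty droplets held 3.45 CPM. It was higher in the members of 7 of 8 libraries, and in cKO-labelled replicate 12 it was 12.8 CPM against 15.4 CPM. Fibroblasts lacking both genes held 7.73 to 44.1 CPM of *Piezo1* (median 26.7), and the members were not called against them (0.15 ± 0.31, adjusted p = 0.823) but were against *Adamtsl3*+ fibroblasts (1.12 ± 0.24). The study found *Piezo1* mainly in endothelial cells, whose genes also led a subgroup of the members described below. The part of such nuclei in the *Piezo1* difference was not tested. In the list of mechanosensitive and TRP channels outside the rule, 3 of 16 tested genes were higher and 2 lower (median 0.05). The higher ones were *Kcnk2*, *Piezo1* and *Trpv2* (37.8 against 19.8 CPM, 0.87 ± 0.20). The lower ones were *Piezo2* and the tip-link cadherin gene *Pcdh15* (26.5 against 68.2 CPM, -1.06 ± 0.37). The call of *Pcdh15* was lost in 7 of 14 other settings. Of the study's fibroblast genes outside the rule, 1 of 3 was higher and 1, *Piezo2*, lower (median 0.34). The higher gene was *Lum*, which encodes the proteoglycan lumican, with 63.9 to 99.7 CPM (median 86.3) in the members and 12.7 to 87.5 CPM (median 36.5) in the other fibroblasts (0.97 ± 0.20). *Lum* was 31.7 to 211 CPM (median 125) in fibroblasts lacking both genes and 68.8 CPM in empty droplets at the median. *Phldb2*, a microtubule anchoring gene, was 993 to 1267 CPM (median 1119) in the members and 723 to 997 CPM (median 859) in the other fibroblasts and stayed under the fold limit (0.34 ± 0.07), which it passed in 2 of 17 other settings.

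Cell junction genes had 8 of 29 higher and 6 lower (median 0.10). The connexin genes *Gjb2* (166 against 76.8 CPM, 0.88 ± 0.10) and *Gjb6* (202 against 113 CPM, 0.82 ± 0.13), which couple leptomeningeal cells, were higher. The cadherin gene *Cdh6* was 5.13 against 47.1 CPM (-3.22 ± 0.27). The catenin genes *Ctnnd2* (70.8 against 269 CPM, -1.83 ± 0.22) and *Ctnna2* (69.2 against 144 CPM, -0.99 ± 0.26) were lower as well. Circadian genes had 6 of 16 higher and 1 lower (median 0.07). *Rora*, a nuclear receptor that activates clock genes, was 2832 to 4089 CPM (median 3193) in the members and 1214 to 1768 CPM (median 1371) in the other fibroblasts (1.21 ± 0.08). The clock output genes *Hlf* (634 against 277 CPM, 1.18 ± 0.10) and *Ciart* (28.4 against 12.6 CPM, 0.87 ± 0.23) and the repressor gene *Cry1* (30.2 against 13.97 CPM, 0.75 ± 0.20) were higher too. Immediate early and stress genes had 4 of 24 in each direction (median 0.00). Against fibroblasts lacking both genes 1 of 23 was higher and 0 lower. Compared with the other fibroblasts as a whole, *Nr4a1* (14.9 against 51.5 CPM, -1.59 ± 0.22), *Fosl2* (-1.12 ± 0.21) and the glucocorticoid target *Fkbp5* (210.0 against 393 CPM, -0.89 ± 0.11) were lower. The heat shock gene *Hspa1a* was higher (0.93 ± 0.20).

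Genes next to the genes of the rule were examined by their place in the mouse genome (GRCm39, GENCODE M39). *Ranbp3l* lies on the plus strand of chromosome 15 at 8997242 to 9068799. *Nadk2*, which encodes the mitochondrial NAD kinase, starts 2.465 kb after its end on the same strand (9071264 to 9110979). It was 253 to 451 CPM (median 305) in the members and 50.6 to 128 CPM (median 83.3) in the other fibroblasts (1.84 ± 0.09). Along *Ranbp3l* counts *Nadk2* was 32.1, 114 and 421 CPM in members with 1, 2 to 5 and 6 or more *Ranbp3l* UMIs. The next gene on that side, *Skp2* (18.7 against 13.7 CPM, 0.26 ± 0.20, adjusted p = 0.428), was not called. *Slc1a3*, a glutamate transporter 255.647 kb before *Ranbp3l* on the other strand, was higher (334 against 152 CPM, 0.96 ± 0.14). Within *Trpm3* on chromosome 19, 2 non-coding genes of the opposite strand, *Gm27151* (407 against 99.4 CPM, 2.08 ± 0.10) and *C330002G04Rik* (93.04 against 35.7 CPM, 1.55 ± 0.13), were higher together with it. Whether the counting used strand is not given in the sources used here, so reads of these genes and of *Trpm3* may not be separable, and a read that runs past the end of *Ranbp3l* could be counted for *Nadk2*. *Klf9*, 145.413 kb beyond *Trpm3*, was lower (191 against 290.4 CPM, -0.64 ± 0.08).

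The other fibroblasts are a mixture, so the members were set against each kind, with the member sums shared by these comparisons and by the one above. Against *Adamtsl3*+ fibroblasts, 1065 of 9914 genes were higher and 861 lower (19.4% in all, 10.7% higher and 8.68% lower). *Themis* (77.8 against 7.01 CPM, 2.79 ± 0.29), *Kcnk2* (652 against 91.7, 2.76 ± 0.21), *Pla1a* (69.7 against 11.7, 2.51 ± 0.24), *Igfbp3* (281 against 35.6, 2.36 ± 0.33) and *Gm43150* (65.3 against 12.5, 2.35 ± 0.18) had the largest higher differences. *Slc4a10* (50.2 against 3263 CPM, -6.04 ± 0.25), *Chrm3* (14.2 against 788, -5.89 ± 0.29), *Rtl4*, *Slc47a2* and *Prmt8* had the largest lower ones. The median UMI count of the members was 3608.6 ± 475.9 against 4256.9 ± 499.96 in *Adamtsl3*+ fibroblasts (SD over 8 libraries).

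Against the 330 fibroblasts lacking both genes, 708 of 9914 genes were higher and 1013 lower (17.4% in all, 7.14% higher and 10.2% lower). *Slc6a20a* (1143 against 113 CPM, 3.36 ± 0.21) and *Atp13a5*, a P5-type ATPase gene (225 against 3.86, 3.55 ± 0.39), led the higher genes. They were followed by *Sidt1* (3.35 ± 0.47), the non-coding *Platr22* (3.30 ± 0.38) and *Nadk2* (305 against 37.3, 3.13 ± 0.19). Reads that run past the end of *Ranbp3l* could be counted for *Nadk2*, as stated above, and the fibroblasts lacking both genes were chosen for 0 *Ranbp3l* UMIs. The lower genes were led by *Tafa2* (1.91 against 75.8, -4.84 ± 0.48), *Sgcz* (-4.59 ± 0.59), the glutamate receptor gene *Grm5* (11.5 against 175, -4.57 ± 0.39), *Neto1*, which encodes a glutamate receptor auxiliary protein (-4.29 ± 0.54), and *Arpp21* (-4.15 ± 0.43), genes known from neurons. In the neuron list the summed level was 592 to 3656 CPM in fibroblasts lacking both genes and 305 to 1149 CPM in the members. The OL list had 9 of 12 genes lower in the members, and it summed to 2849 to 7944 CPM in fibroblasts lacking both genes and 2691 to 4394 CPM in the members. All 8 tested OPC markers were lower (732 to 3403 CPM against 261 to 526 CPM in the members), as were 4 of 10 myeloid markers (158 to 843 against 148 to 433 CPM). The part of these markers in the result was not tested. Nuclei chosen for 0 UMIs of both genes had a median UMI count of 3007.3 ± 368.65 against 3608.6 ± 475.9 and 1801 against 2099 genes per nucleus (SD over 8 libraries). Their mitochondrial share was 1.18% against 0.938%. With nuclei that held 2 or more UMIs over 24 markers of other cell types left out, 1098 genes in place of 1721 were called in this comparison. Leaving out nuclei with 3 or more UMIs over the whole myeloid, endothelial, mural, neuron and pituitary lists gave 421 calls among 2922 tested genes. *Tafa2*, *Sgcz*, *Grm5*, *Neto1* and *Arpp21* were too low to be tested under either filter or after thinning. Their calls were thus not checked there, and were kept in the 14 settings that tested them. *Sidt1* and *Platr22* were too low under the second filter and after thinning. *Slc4a10* was 104 to 586 CPM in the fibroblasts lacking both genes, between the other groups, and *Dcn* was highest there (1294 CPM at the median against 794 CPM in the members).

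Markers of other cell types were present in the members. The summed levels of the OL, OPC, myeloid and Schwann cell lists lay below those of empty droplets, whereas those of the astrocyte, endothelial, T cell, melanocyte and neuron lists lay above them. The 12 OL markers summed to 2691 to 4394 CPM in the members, 2327 to 4235 CPM in the other fibroblasts and 25958 to 33766 CPM in empty droplets, and 0 of 12 were called. The 9 tested astrocyte markers had 2 higher and 4 lower, and the list summed to 6291 to 7809 CPM in the members, 3408 to 6028 CPM in the other fibroblasts and 3180.2 to 4301 CPM in empty droplets. *Slc1a3*, a glutamate transporter, was among the higher ones. The lower ones were *Gpc5* (-3.17 ± 0.21), *Slc4a4* (-2.06 ± 0.08), *Fgfr3* (-1.67 ± 0.26) and *Lsamp* (-1.65 ± 0.29). The 8 tested OPC markers had 1 higher and 4 lower, and the list summed to 261 to 526 CPM in the members, 319 to 811 CPM in the other fibroblasts and 721 to 1049 CPM in empty droplets. *Tnr* (-1.73 ± 0.27), *Lhfpl3* (-1.34 ± 0.27), *Pcdh15* and *Cspg4* (-0.93 ± 0.17) were the lower ones. The 10 myeloid markers had 0 higher and 2 lower, *Cd74* (-0.91 ± 0.14) and *C1qb* (-0.52 ± 0.18). The call of *C1qb* was lost in 11 of 15 other settings. They summed to 148 to 433 CPM in the members, 245 to 702 CPM in the other fibroblasts and 756 to 941 CPM in empty droplets.

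Some vascular markers were higher in the members than in the other fibroblasts as a whole. Against fibroblasts lacking both genes this was not so for most, with 1 of 7 tested endothelial markers higher and 2 lower, 0 of 6 mural markers higher and 2 lower, and 0 of 4 Schwann cell markers higher and 2 lower. The 8 tested endothelial markers had 2 higher and 0 lower, and the list summed to 312 to 780.2 CPM in the members, 211 to 598 CPM in the other fibroblasts and 79.4 to 178 CPM in empty droplets. *Flt1*, a VEGF receptor, was 103 to 217 CPM (median 180.5) in the members and 18.2 to 159 CPM (median 63.7) in the other fibroblasts (1.14 ± 0.15), and *Cdh5*, which encodes VE-cadherin, 161 against 107 CPM (0.59 ± 0.10, a call lost in 2 of 17 other settings). The 6 tested mural markers had 4 higher and 1 lower, and the list summed to 269.9 to 449.8 CPM in the members, 143 to 404 CPM in the other fibroblasts and 128 to 277 CPM in empty droplets. The smooth muscle genes *Acta2* (33.7 against 10.8 CPM, 1.12 ± 0.29) and *Tagln* (81.7 against 44.5 CPM, 0.94 ± 0.19) were among the higher ones. The 4 tested Schwann cell markers had 1 higher, *Scn7a* (22.3 against 8.95 CPM, 1.10 ± 0.25), and 0 lower. The whole list summed to 239 to 357 CPM in the members, 222 to 353 CPM in the other fibroblasts and 505 to 593 CPM in empty droplets.

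In the T cell list 1 gene was tested, *Themis*, and the list summed to 59.8 to 142 CPM in the members, 25.7 to 64.7 CPM in the other fibroblasts and 11.5 to 19.5 CPM in empty droplets. The 5 tested neuron markers had 1 higher, *Rbfox1* (446 against 262 CPM, 0.78 ± 0.21), and 2 lower, *Syt1* (-1.68 ± 0.41) and *Snap25* (-0.83 ± 0.26, a call lost in 4 of 14 other settings). Their list summed to 305 to 1149 CPM in the members, 294 to 950.3 CPM in the other fibroblasts and 86.4 to 268 CPM in empty droplets. Both tested melanocyte markers were higher. The receptor gene Kit was 99.9 to 161 CPM (median 120.0) in the members and 18.6 to 52.7 CPM (median 30.97) in the other fibroblasts (1.90 ± 0.12), and the transcription factor gene *Mitf* 144 against 90.7 CPM (0.71 ± 0.11). The list summed to 242 to 328 CPM in the members, 116 to 166 CPM in the other fibroblasts and 41.9 to 82.5 CPM in empty droplets. Of its 8 genes 1, *Slc45a2*, was at 0 in the members, and the others held UMIs there. Of the pituitary list, *Prl* was tested and not called (0.11 ± 0.24, adjusted p = 0.805). The part of these other cell types in the calls was not tested. Without nuclei that held 2 or more UMIs over the 24 markers (355 members and 317 other fibroblasts left out), 1862 genes were called in place of 1937. The filter at 3 or more UMIs over the 5 whole lists named above left out 1253 members and 681 other fibroblasts, and 999 of 4388 tested genes were then called.

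Clustering of the members on 1000 variable genes gave 10 subgroups, described by their leading genes without a test, and each held nuclei of several libraries, none with more than 36.7% from a single library. Subgroup 1 (371 nuclei) had the highest *Ranbp3l* (4630.1 CPM summed over libraries), *Trpm3* (37933 CPM) and *Slc6a20a* (2870.3 CPM), with *Atp13a5* (699 CPM), *Kcnt1* and *Rspo2* among its leading genes and little *Lama1* (39.5 CPM). Subgroup 2 (314 nuclei) was led by *Pla1a*, *Mfap5*, a microfibril gene, and the IGF binding protein genes *Igfbp5* (2030.3 CPM) and *Igfbp3* (823 CPM), with *Dcn* at 1751 CPM. Subgroup 3 (230 nuclei) was led by named genes such as *Ankrd55*, *Ttn*, *Ccbe1* and *Lamc3* (226 CPM), and held 3008 CPM of *Slc7a11* but 56.1 CPM of *Bnc2*.

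Subgroup 4 (219 nuclei) had *Col25a1* (734 CPM), the lubricin gene *Prg4* (1205 CPM), *Cdh1* (560.2 CPM), *Dapl1* and *Cubn* among its leading genes, with 2499 CPM of *Bnc2*, 126 CPM of *Slc7a11* and 183 CPM of *Slc4a10*. *Col25a1* and *Cdh1* were among the genes lower in the members as a whole. Subgroup 6 (182 nuclei) was led by *Luzp4*, *Slit3*, *Adamts12* and the matrix gene *Tnc*, and held 32551 CPM of *Trpm3* and 415 CPM of *Lepr*. Subgroup 7 (108 nuclei) stood apart by *Galnt18*, *Fgf10*, *Col8a1* and *Lama1* (1446 CPM), with the highest *Dcn* (2998 CPM) and the lowest *Trpm3* (823 CPM) and *Ranbp3l* (932 CPM) of the 10.

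The remaining 4 subgroups were led by genes known from other cell types. Subgroup 5 (194 nuclei) had the endothelial genes *Vwf*, *Ptprb* and *Cldn5* and the smooth muscle gene *Myh11*. Subgroup 8 (66 nuclei) had the neuronal genes *Asic2*, *Nrxn3* and *Nalf1*, with 335 CPM of *Syt1*. Subgroup 9 (56 nuclei) had the leukocyte genes *Inpp5d*, *Ptprc*, *F13a1* and *Mrc1*, and subgroup 10 (30 nuclei) *Nkain2* and *Bcas1os2*. They made up 346 members (19.5%) and held 46 of the 53 members that a simulated-doublet score would remove, against 7 in the other 1424 members (80.5%). With all nuclei above the doublet score left out, 1895 genes were called against the other fibroblasts.

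**Figure D4:**
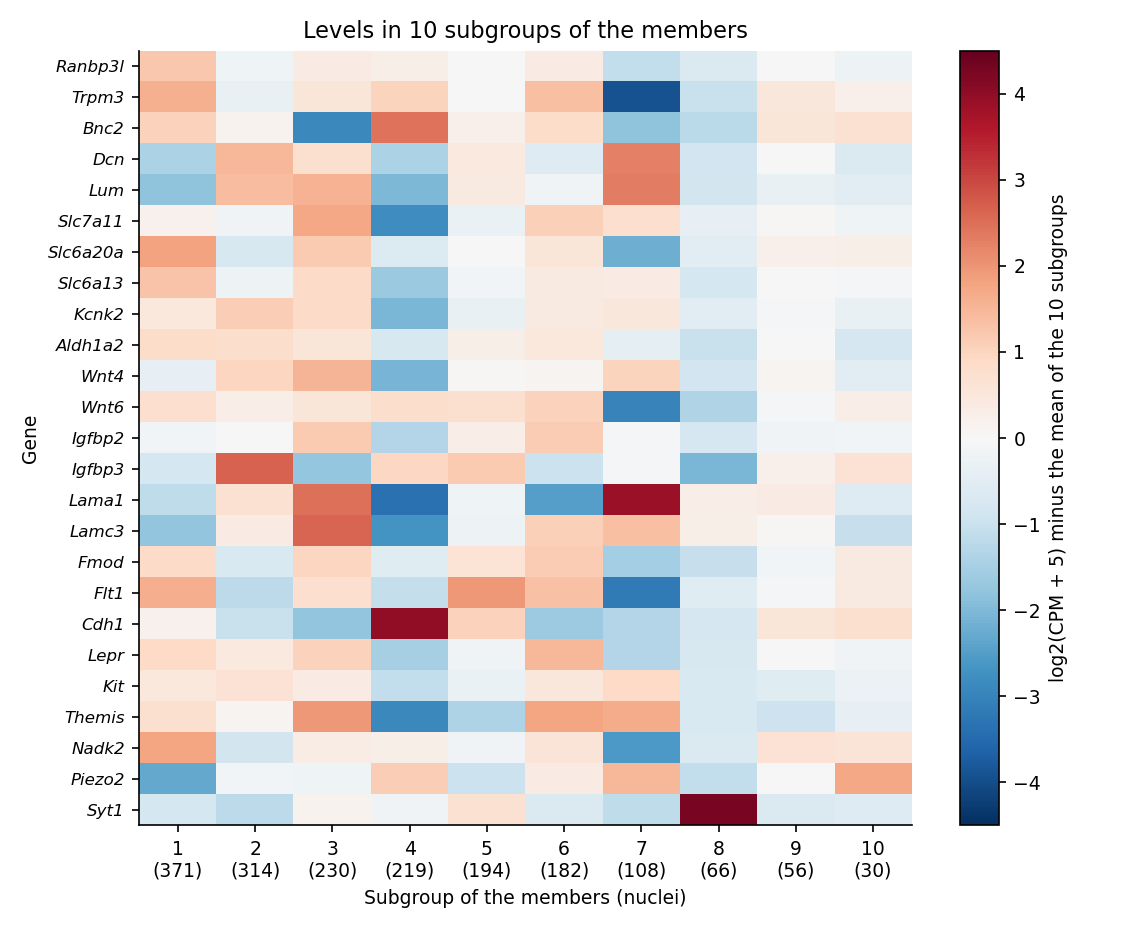
Levels of selected genes in the 10 subgroups of the members, as log2(CPM + 5) minus the mean of the 10 subgroups, red standing above and blue below that mean and the number of nuclei under each column. Subgroup 7 is high for *Lama1* and low for *Trpm3*, subgroup 4 is high for *Cdh1* and *Bnc2*, and subgroup 8 is high for *Syt1*.

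Between the genotypes, neither the share of *Ranbp3l*+ fibroblasts nor any gene within them passed the test with low counts filtered out. They made up 57.2 ± 7.55% (SD, n = 4) of control fibroblasts and 61.3 ± 7.11% of fibroblasts in libraries labelled cKO. The difference was 4.07 percentage points (n = 4 each, exact permutation test, two-sided, p = 0.4286, adjusted over 2 shares 0.8572, smallest possible p 0.0286). It ranged from 1.83 to 7.43 points with a library left out. With every fibroblast thinned to 1000 UMIs the shares were 46.7% and 54.1%, a difference of 7.35 points (exact permutation test, two-sided, p = 0.1429). Fibroblasts made up 7.33 ± 2.70% and 7.13 ± 1.54% of kept barcodes (exact permutation test, two-sided, p = 1, n = 4 each). Of 10765 genes tested within the members by edgeR's quasi-likelihood test with Benjamini-Hochberg adjustment, 0 were called (0.0%), 407 had an unadjusted p under 0.05, and DESeq2 likewise called 0 with 224 under 0.05. With no filter on low counts 57 genes passed, 22 higher and 35 lower. They included 6 of the genes named below, *Snhg9*, *Gm12153*, *Ntn4*, *Epb41l4a*, *Prl* and *Gh*. These 6 were also tested with low counts filtered out and were not called there. The libraries are pools, so these tests measure the spread between pools of 3 mice.

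Genes with the smallest adjusted p were *Snhg9*, *Gm12153*, *Lgals4*, *Cdh1* and *Mettl21a* on the higher side and *Ntn4*, *Epb41l4a*, *Prl*, *Gh* and *Ptprm* on the lower side of the libraries labelled cKO, with adjusted p between 0.961 and 0.999. *Cdh1* in the members was 60.7, 93.2, 68.7 and 89.2 CPM in the control libraries and 107, 119, 138 and 118 CPM in those labelled cKO (0.65 ± 0.16). Most of it came from subgroup 4, with 560.2 CPM there and 25.2 CPM in the other members. *Ntn4*, a netrin of basement membranes, was 47.6, 35.6, 34.7 and 35.4 CPM and 18.02, 19.8, 18.2 and 13.6 CPM (-1.15 ± 0.22). *Prl* (24.99, 142, 1277 and 28.9 against 2.77, 22.2, 0 and 0 CPM) and *Gh* (11.9, 45.7, 634 and 28.9 against 0, 10.7, 0 and 0 CPM) were highest in replicate 3 of the control and replicate 11 of the cKO-labelled libraries. The same held in the empty droplets. *Gh* did not keep the order of the empty droplets throughout, which held 85.5 CPM in control replicate 1 and 60.8 CPM in control replicate 4. *Piezo2* in the members had a log2 difference of 0.40 ± 0.25 (adjusted p = 0.999), *Piezo1* of -0.16 ± 0.30, *Phldb2* of -0.12 ± 0.14 and *Lum* of -0.24 ± 0.15.

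The difference between members and other fibroblasts was also compared between the genotypes, by an interaction term. It called 0 of 10601 genes (0.0%), with 535 at an unadjusted p under 0.05, and 19 genes when control replicate 3 was left out. For *Piezo2* the interaction was 0.56 ± 0.20 on the log2 scale (adjusted p = 0.953), for *Slc7a11* -0.11 ± 0.20 and for *Slc4a10* 0.42 ± 0.26. A missed threshold at 4 libraries a group does not show that the genotypes were alike.

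**Figure D5:**
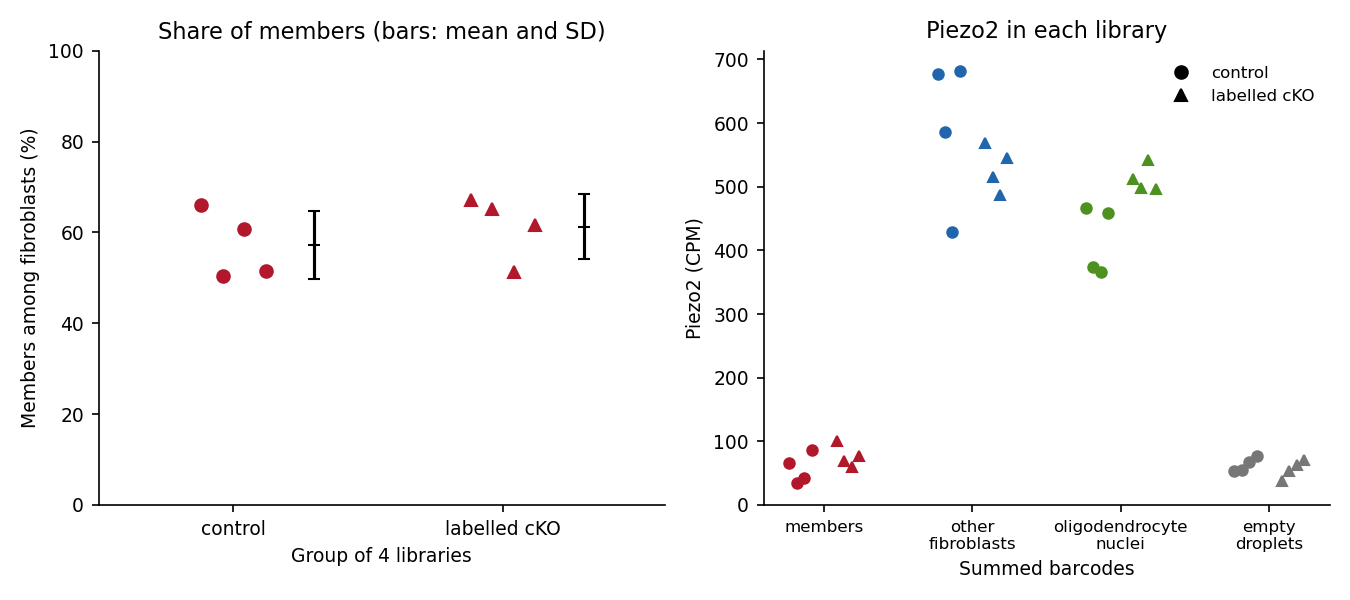
Share of *Ranbp3l*+ fibroblasts among fibroblasts (percent) and levels of *Piezo2* (CPM) in the members, other fibroblasts, OL nuclei and empty droplets, with a circle per control and a triangle per cKO-labelled library and bars for the mean and SD of 4 shares. The shares lay between 50.5% and 66.1% in control and between 51.2% and 67.2% in cKO-labelled libraries, so that the groups overlap, and *Piezo2* in the members lies at 33.9 to 101 CPM in all 8 libraries, below the other fibroblasts.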

How the data were processed

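Raw counts per gene and barcode of 8 single-nucleus libraries were analysed. Per the labels and the study's methods, nuclei of pooled ONs were run on a 10x 3′ assay and the authors aligned and counted reads with Cell Ranger 7.0.0 on a GRCm39 reference, as the sources state for the deposited UMI counts. The headers of the matrix files name an earlier Cell Ranger version, and the difference was not resolved here. No correction for free RNA, doublets or batch had been applied to these files, and whether introns and strand entered the counting is not given in the sources used here.

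Members, thresholds and all 34 gene lists were chosen with earlier results of these data known. The 12 genes that form the rule were kept out of all calls. Nuclei were summed per library and group, and CPM were taken per 1000000 summed UMIs. Sums were tested with edgeR 4.0.16 (TMM, filterByExpr, quasi-likelihood test), with the library as a block wherever sums of the same library were compared. Log2 differences are given ± SE. Shares were compared by exact permutation tests over libraries. Subgroups came from Leiden clustering (1000 variable genes, 15 components, 15 neighbours, resolution 0.6). The steps were checked on simulated counts.

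Named were the genes of the rule and of the study, the 15 highest and 10 lowest called genes with a mean of at least 50 CPM and the same direction in 8 of 8 libraries, 5 in each direction in the other comparisons, and up to 4 called genes per list. Genes named beyond these, such as *Slc22a8*, *Bmp6*, *Id1*, *Efnb2*, *Tbx18* and *Nadk2*, were chosen after their values were seen. A few genes that the rule would name are not reported here. Alternatives were DESeq2 1.42.0, no filter on low counts, thinning to 1000 UMIs, removal of doublets or of nuclei with markers of other cells, at least 2 *Ranbp3l* UMIs, no block, and leaving out each library. Subtraction of free RNA and a filter on 24 markers were added after the data were seen. Nothing here separates mice within a pool.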

Additional observations from a re-analysis of the deposited data

Results flagged for a closer look

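Of 82 groups of 4 libraries examined, 7 held a library that lay far from the other 3 by Dixon's criterion, which chance flags in about 1 of 20 groups. In the members, *Prl* was 1277 CPM in control replicate 3 against 24.99 to 142.3 CPM in the other control libraries, and *Gh* was 633.8 CPM against 11.9 to 45.73 CPM. Among the libraries labelled cKO, replicate 11 had 22.24 CPM of *Prl* against 0 to 2.772 CPM and 10.71 CPM of *Gh* against 0 CPM in the others. The empty droplets of control replicate 3 held 4747 CPM of *Prl* and 2504 CPM of *Gh*, and its OL nuclei 777 and 463 CPM. Those of cKO-labelled replicate 11 held 50.7 and 10.9 CPM. *Ntn4* was 47.6 CPM in the members of control replicate 1, where control replicates 2 to 4 had 34.72 to 35.57 CPM. *Cdh11*, a gene of the rule, was 39.55 CPM in cKO-labelled replicate 11 and 65.27 to 67.91 CPM in the other 3. Subgroup 8, led by neuronal genes, made up 0.6993% of the members of control replicate 4, where control replicates 1 to 3 had 4.673% to 4.878%.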

How the results depend on the processing

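Against the other fibroblasts, the count of 1937 called genes became 855 after thinning to 1000 UMIs and 999 without nuclei that held 3 or more UMIs over the myeloid, endothelial, mural, neuron and pituitary lists (1253 members and 681 others left out), where 3870 and 4388 genes were tested. It lay between 1814 and 1920 with any library left out, and was 1646 by DESeq2. Requiring at least 2 *Ranbp3l* UMIs of the members gave 1976 calls, and no filter on low counts gave 2760. Against *Adamtsl3*+ fibroblasts (1926 calls) these settings gave 853 after thinning and 943 without nuclei with such markers. Against fibroblasts lacking both genes (1721 calls) they gave 563 and 421, with 2916 under no filter and 1098 under the 24-marker filter. Of the called genes named in that first comparison, none changed direction where tested, and 14 lost their call under at least 1 setting, most often *C1qb*, *Eln*, *Fbn2*, *Pcdh15*, *Ptgds* and *Snap25*. *Cdh5* lost it under thinning and without nuclei with markers of other cells, *Bmp6* under the latter, *Acta2* and *Cyp26b1* with no block, *Cry1*, *Loxl3* and *Rbfox1* by DESeq2, and *Tjp1* without replicate 4. The filter on markers of other cells counts *Cdh5* itself, so it is no separate check of that gene. A gene too low to be tested in a setting was not counted as losing its call there. Of 165 genes followed, those of the rule included, 99 were rated the same after thinning. Without nuclei with markers of other cells 93 were. In each case most of the others were too low for a test. Genotype calls within the members stayed at 0 except under no filter, where 57 genes passed (22 higher, 35 lower). The interaction gave 0 to 19 calls with a library left out, the 19 (6 higher, 13 lower) without control replicate 3, and 3 under the 24-marker filter. The fibroblast share difference of -0.206 points ranged from -0.883 to 1.04 with a library left out, and turned positive without replicate 3 (1.04), 10 (0.337) or 11 (0.0682). The member share difference stayed positive (1.83 to 7.43 points). The difference in median UMIs ranged from -383 to -216 with a library left out. *Phldb2* passed the fold limit after thinning (0.51) and without nuclei with markers of other cell types (0.52).

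No paired analysis was possible between the genotypes because control and cKO-labelled libraries share no replicate number. Member comparisons used the library as a block, and with no replicate block they called 1831, 1864 and 1663 genes. Sums per library rest on 107 to 367 members, which limits the precision for genes of few UMIs. The members' level of *Piezo2* was close to that of empty droplets, and the part of free RNA in it was not tested. *Ranbp3l* and *Adamtsl3* at 0 UMIs do not show absence of expression.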
